A study of Homo sapiens with 11 samples.

Results

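Chemokines are small secreted proteins that draw leukocytes towards the cells that make them. The 10 genes described here were taken by symbol from the count file: the CXC chemokine genes CXCL8, CXCL1, CXCL2, CXCL3, CXCL5, CXCL6, CXCL12 and CXCL16, and the CC chemokine genes CCL2 and CCL5. The file names 35303 genes, and all 10 chemokine genes were among the 16117 that passed a filter on low counts and were tested. RNA was sequenced from LX-2, an immortalised human line derived from hepatic stellate cells, the pericytes that make scar tissue in the injured liver. The HIV-1+LTA libraries came from cells given HIV-1BaL, a laboratory strain of the virus, at a multiplicity of infection of 0.1 together with lipoteichoic acid (LTA), a polymer found in the envelope of Gram-positive bacteria, at 1 ug per ml. The HIV-1 libraries came from cells given the same dose of virus alone, and the PBS libraries from cells given phosphate-buffered saline. All cells were labelled wild type and were sampled at 24 h, and each group had 3 libraries, 1 from each of 3 labelled batches. No library with LTA alone was analysed here, and the labels give no share of infected cells. They do not say whether the libraries of a batch came from separate cultures, so p-values measure the spread between these libraries only.

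The CXC genes CXCL8, CXCL1, CXCL2, CXCL3, CXCL5 and CXCL6 encode chemokines with a glutamate-leucine-arginine (ELR) motif before the first cysteine, which attract neutrophils through the receptors CXCR1 and CXCR2. CXCL12 signals through CXCR4 and is also bound by ACKR3, CXCL16 is made as a membrane protein that binds CXCR6, CCL2 attracts monocytes through CCR2, and CCL5 attracts T cells and monocytes. The inflammatory members are usually switched on by NF-kappaB and AP-1 downstream of Toll-like and IL-1 receptors, and their mRNAs are short-lived. Stellate cells are known to secrete CCL2 and CXCL8 when activated.

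The 6 ELR genes lie together on chromosome 4 of hg19, within 358.7 kb that run from CXCL8 (74606236 to 74609433, plus strand) through CXCL6 (74702357 to 74714781, plus), CXCL1 (74735110 to 74737025, plus), CXCL5 (74861359 to 74864394, minus) and CXCL3 (74902306 to 74904524, minus) to CXCL2 (74962757 to 74964913, minus). CXCL12 lies on chromosome 10 (44865613 to 44881941, minus). On chromosome 17 lie CXCL16 (4636828 to 4643223, minus), CCL2 (32582293 to 32584227, plus) and CCL5 (34198495 to 34207797, minus). Promoter sequences of 7 of the 10 genes were found in a RefSeq table (GRCh38.p14), and each matched hg19 exactly at 1 place. The 4 printed here are each the 150 bases before the RefSeq start. CXCL8 is shown as the gene read here beside its family, and CXCL1 stands for CXCL1, CXCL2 and CXCL3. CXCL5 and CXCL6 are the genes whose levels differed most between batches. Capitals mark matches to GGNNTTTCC (kappaB-like) and TGANTCA (AP-1-like), searched on both strands.
CXCL8, chr4:74606136-74606285, plus strand: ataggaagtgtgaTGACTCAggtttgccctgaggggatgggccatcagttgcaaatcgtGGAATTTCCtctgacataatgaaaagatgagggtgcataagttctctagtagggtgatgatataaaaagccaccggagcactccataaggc
CXCL1, chr4:74734960-74735109, plus strand: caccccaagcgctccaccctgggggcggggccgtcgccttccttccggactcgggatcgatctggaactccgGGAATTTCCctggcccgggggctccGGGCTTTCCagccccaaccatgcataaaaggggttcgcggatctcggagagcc
CXCL5, chr4:74864395-74864544, minus strand: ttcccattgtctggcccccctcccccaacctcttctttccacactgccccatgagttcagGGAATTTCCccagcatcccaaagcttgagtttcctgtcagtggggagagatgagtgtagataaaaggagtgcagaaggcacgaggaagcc
CXCL6, chr4:74702245-74702394, plus strand: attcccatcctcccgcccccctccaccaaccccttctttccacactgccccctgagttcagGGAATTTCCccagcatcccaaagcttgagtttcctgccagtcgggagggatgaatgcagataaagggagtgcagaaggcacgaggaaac

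All 6 ELR promoters held GGAATTTCC on the gene's own strand, between 91 and 69 bases before the start. In CXCL1, CXCL2 and CXCL3 a further match, GGGCTTTCC, lay at -53 to -45 (base -1 is the last before the start). Over windows of 300 bases, GGNNTTTCC was found in 6 of the 7 chemokine promoters, CXCL12 having none, and in 6.26% of 35116 promoters in the table. CXCL8 alone of the 7 also had a TGANTCA match, at -137 to -131, which 7.71% of all promoters hold. It was also the 1 promoter of the 7 with TATAAA, which 11.5% of all promoters hold, and 0.521% hold both the kappaB-like and the AP-1-like match. Aligned over those windows, CXCL5 and CXCL6 were 83.1% identical and CXCL1 and CXCL3 82.5%, while CXCL8 was 43.0% to 44.7% identical to the other ELR genes. These matches are letters in a window and say nothing of whether a factor was bound.

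**Figure D1:**
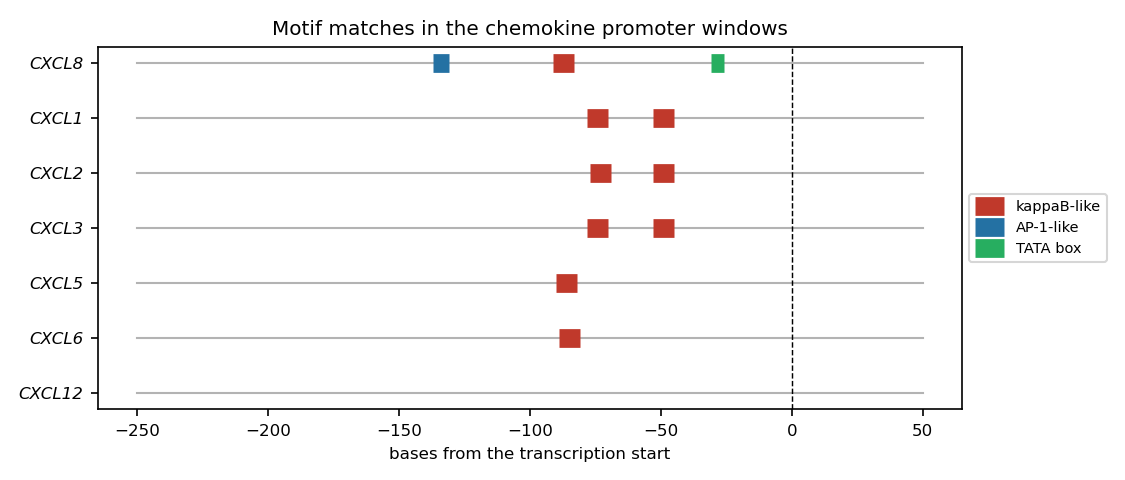
Matches to a kappaB-like motif (GGNNTTTCC), an AP-1-like motif (TGANTCA) and TATAAA in the RefSeq promoter windows of 7 chemokine genes, by distance in bases from the transcription start (dashed line). Each of the 6 ELR genes has a kappaB-like match upstream of its start, CXCL1, CXCL2 and CXCL3 have a further one, and CXCL12 has none.

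Libraries held 50.6 to 90.6 M counts (megacounts), and levels are given as CPM, a gene's counts per M counts of its library, scaled by edgeR's TMM factors. In edgeR 10997 of 16117 genes (68.2%) differed among the 3 batches at an adjusted p below 0.05, a test that does not single out any batch. Batch 3 stood apart in all 3 groups. Within a group, libraries of batches 1 and 2 differed by 12.5 to 37.9 times the chi-square expected from sampling. Pairs with the batch 3 library differed by 242.5 to 358.4 times. Comparisons were therefore made within batches, with the batch as a block in 1 fit over all 9 libraries. The cells carried stellate markers in every library: the 9 listed genes, which include ACTA2, COL1A1, PDGFRB and VIM, summed to 6547 to 8231 CPM in batch 3, against 3407 to 4674 CPM in batches 1 and 2. Among 4 neutrophil markers, FCGR3B, S100A8 and S100A9 had 0 counts in all 9 libraries and CSF3R had at most 2. The T cell markers CD2 and IL2RA were at 0 throughout and CD3D and CD3E at 4 counts or fewer, whereas CD4 averaged 10.1 CPM.

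CXCL12 was by far the most abundant chemokine transcript. Per kilobase of exon it averaged 60.1 ± 9.10 CPM (SD, n = 9 libraries), and it made up 94.6% to 96.9% of the counts of the 10 genes together. Next on this per-length scale came CXCL16 (1.65 ± 0.945 CPM per kb), CXCL8 (1.59 ± 0.428) and CCL2 (1.59 ± 0.638), then CXCL1 (0.957 ± 0.360) and CXCL5 (0.680 ± 0.488). CXCL2 (0.384 ± 0.106), CCL5 (0.366 ± 0.286), CXCL6 (0.331 ± 0.431) and CXCL3 (0.141 ± 0.0685) were the lowest. Below CXCL12, each neighbouring pair in this order differed by less than the larger SD of the pair. The order was not the same in each batch. CXCL16 was second in batches 1 and 2, with means of 1.91 and 2.48 CPM per kb, whereas in batch 3 it was at 0.544 CPM per kb, below CCL2 (2.30), CXCL8, CXCL1 (1.24) and CXCL6 (0.819). The lowest of the 10 was CXCL6 in batches 1 and 2, at 0.0835 and 0.0919 CPM per kb, and CXCL5 in batch 3, at 0.0496. In bulk RNA, fewer cells making a transcript and less transcript per cell cannot be told apart.

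**Figure D2:**
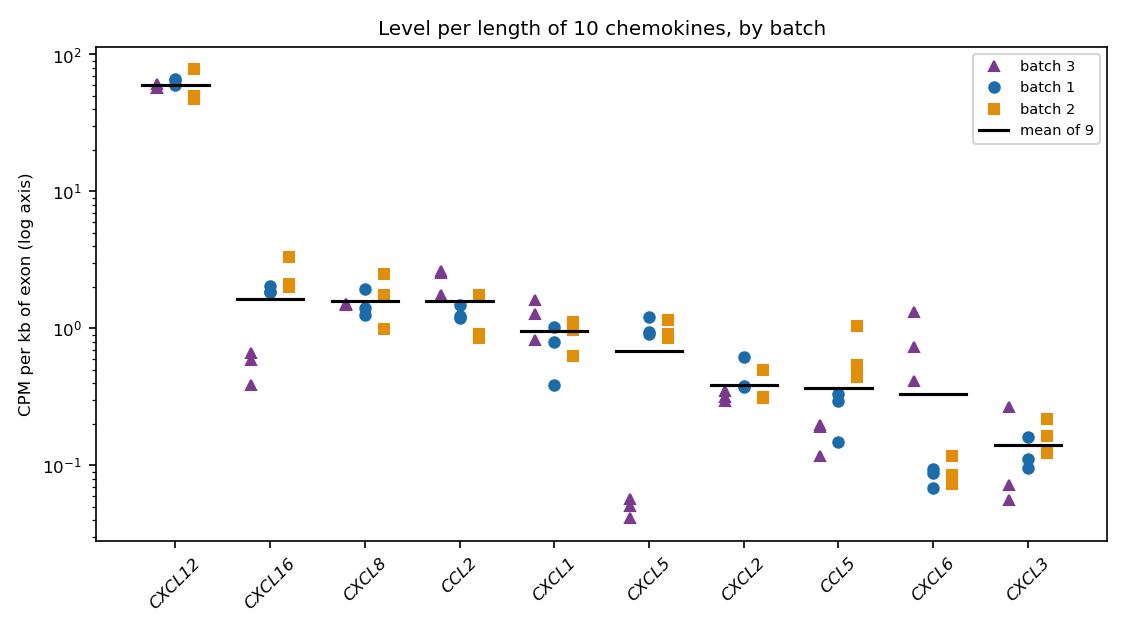
CPM per kilobase of exon (log axis) of the 10 chemokine genes, ordered by their mean; each point is 1 library, coloured by batch, and the line is the mean of 9. CXCL12 lies at 60.1 CPM per kb, and the batch 3 points of CXCL5 and CXCL16 lie below those of the other batches while those of CXCL6 lie above.

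Of the 10 genes, none passed the test in any comparison of treatments, although in HIV-1+LTA against PBS the fitted log2 fold change was above 0 for all 10. In that comparison 0 of 10 passed in edgeR, where 0% of all genes passed, and in DESeq2 with the batch as a block 0 passed of the 5 that had an adjusted p, beside 1.18% of 19990 genes, or 1.93% of the 12239 with an adjusted p. DESeq2 gave CXCL1, CXCL2, CXCL3, CXCL6 and CCL5 no adjusted p in that comparison, so they could not pass there. The median log2 fold change of the 10 was 0.45, from 0.26 for CXCL12 to 1.05 for CCL5, beside 0.002 over all genes tested, 50.4% of which were above 0. Scaling by library totals alone moved the median of all genes to 0.06 and their share above 0 to 66.6%, and that of the 10 chemokines to 0.51. CCL5, CXCL8, CXCL6, CXCL12, CXCL16 and CXCL5, that is 6 of 10 beside 16.8% of all genes, had an unadjusted edgeR p below 0.05, and their adjusted p ran from 0.205 to 0.284. Leaving out 1 library or 1 batch, that count ran from 1, without the HIV-1+LTA library of batch 2 or without batch 2, to 7. At an adjusted p below 0.05, 4 of 10 chemokines passed in edgeR without the HIV-1+LTA library of batch 1, beside 2648 of 16342 genes tested. These 4, all higher, were CXCL16 (log2 fold change 0.66, adjusted p 0.0134), CXCL12 (0.38, adjusted p 0.024), CCL2 (0.70, adjusted p 0.0363) and CCL5 (1.20, adjusted p 0.0494), while 9 of 10 stayed above 0. Without the whole of batch 1, 3 of 10 passed, beside 1733 of 16165 genes tested: CXCL16 (0.74, adjusted p 0.0227), CCL2 (0.82, adjusted p 0.0348) and CXCL12 (0.42, adjusted p 0.0409).

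**Figure D3:**
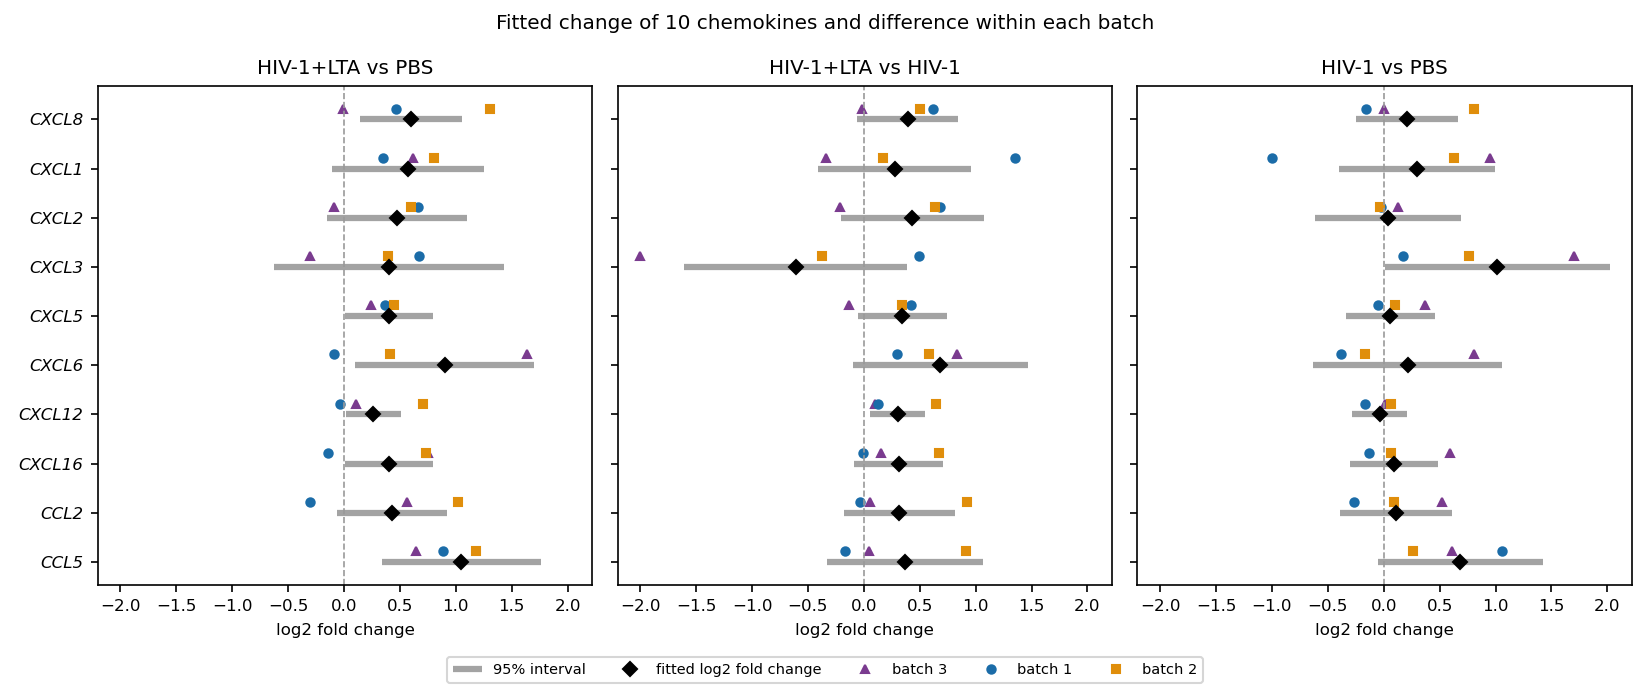
Fitted log2 fold change of the 10 chemokine genes (diamond, edgeR with the batch as a block) with its 95% interval (grey bar), and above it the difference in log2 CPM within each batch. In HIV-1+LTA against PBS all 10 diamonds lie above 0; in HIV-1+LTA against HIV-1 that of CXCL3 lies below, at -0.61, and in HIV-1 against PBS that of CXCL12 lies at -0.04.

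CXCL8 encodes interleukin-8, a neutrophil attractant. It was measured at 5.03, 6.42 and 3.86 CPM in the HIV-1+LTA libraries of batches 1, 2 and 3, at 3.26, 4.54 and 3.89 CPM in the HIV-1 libraries and at 3.64, 2.58 and 3.88 CPM in the PBS libraries. The HIV-1+LTA libraries of batches 1 and 2 were the highest of the 9, the 3 libraries of batch 3 were nearly equal, and the groups overlapped in every comparison. The log2 fold change in HIV-1+LTA against PBS was 0.60 (SE 0.207, 95% interval 0.15 to 1.05, edgeR adjusted p 0.217), a 1.52-fold difference. It was 0.86 without batch 3 and 0.25 without batch 2. For HIV-1+LTA against HIV-1 it was 0.39 (interval -0.06 to 0.84) and for HIV-1 against PBS 0.21 (interval -0.25 to 0.67). In the authors' deposited table, whose values match HIV-1+LTA against PBS, CXCL8 stands at 0.58 (SE 0.211, DESeq2 adjusted p 0.110).

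CXCL1, CXCL2 and CXCL3 encode close paralogues, the GRO chemokines, which act on CXCR2. CXCL1 was measured at 1.38, 1.51 and 1.73 CPM in the HIV-1+LTA libraries of batches 1, 2 and 3, at 0.525, 1.33 and 2.20 CPM in the HIV-1 libraries and at 1.08, 0.852 and 1.12 CPM in the PBS libraries. All 3 HIV-1+LTA values were above all 3 PBS values. CXCL1 was the 1 chemokine of 10 whose HIV-1+LTA and PBS libraries did not overlap, which 3.82% of all genes tested also did. Its log2 fold change in that comparison was 0.57 (SE 0.310, interval -0.10 to 1.25, edgeR adjusted p 0.364), with 0.35, 0.80 and 0.62 within batches 1, 2 and 3, and it was 0.94 without the PBS library of batch 1. The HIV-1 libraries spanned both other groups, and HIV-1 against PBS was -0.996 within batch 1 and 0.95 within batch 3.

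CXCL2 was measured at 0.863, 0.690 and 0.413 CPM in the HIV-1+LTA libraries of batches 1, 2 and 3, at 0.525, 0.434 and 0.484 CPM in the HIV-1 libraries and at 0.534, 0.445 and 0.440 CPM in the PBS libraries. The HIV-1+LTA libraries of batches 1 and 2 were the highest of the 9 and that of batch 3 was the lowest. The log2 fold change was 0.47 (SE 0.286) in HIV-1+LTA against PBS and 0.43 (SE 0.293) in HIV-1+LTA against HIV-1. In HIV-1 against PBS it was 0.04, with an interval from -0.61 to 0.69.

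CXCL3, whose level per length averaged lowest over the 9 libraries, had an HIV-1 library above the PBS library in each batch, while the highest HIV-1+LTA library lay below the HIV-1 libraries of batches 2 and 3. Its level was 0.357, 0.366 and 0.124 CPM in the HIV-1+LTA libraries, 0.245, 0.484 and 0.588 CPM in the HIV-1 libraries and 0.214, 0.272 and 0.160 CPM in the PBS libraries of batches 1, 2 and 3, from 6 to 34 counts. HIV-1 against PBS gave 1.01 (SE 0.459, interval 0.01 to 2.02, edgeR adjusted p 0.946), and 0.46 without the HIV-1 library of batch 3. HIV-1+LTA against HIV-1 gave -0.61 (interval -1.60 to 0.38), with the HIV-1+LTA library of batch 3 the lowest of the 9, and 0.02 without that batch. Runs of 50 bases shared with another GRO transcript make up 5.33% of CXCL1, 10.1% of CXCL2 and 5.26% of CXCL3, so short reads there could be assigned to either gene; no run of 100 bases was shared.

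CXCL5 and CXCL6 encode ENA-78 and GCP-2, a pair of closely related ELR chemokines. CXCL5 was measured at 2.96, 2.82 and 0.124 CPM in the HIV-1+LTA libraries of batches 1, 2 and 3, at 2.21, 2.22 and 0.138 CPM in the HIV-1 libraries and at 2.29, 2.06 and 0.100 CPM in the PBS libraries. Within each batch the HIV-1+LTA library was above the PBS library, by 0.37, 0.44 and 0.24 in log2 CPM, the last of these on 6 against 5 counts. The libraries of batch 3 held 5 to 8 counts of CXCL5 and those of batches 1 and 2 held 126 to 214. The fitted log2 fold change was 0.40 (SE 0.178, edgeR adjusted p 0.284). A gene in the opposite direction, ENSG00000287037, covers 17.3% of its exonic bases, and the strand setting of the counting is not given in the sources used here, so reads of the pair cannot be told apart there.

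CXCL6 showed the reverse picture across batches. It was measured at 0.179, 0.240 and 2.68 CPM in the HIV-1+LTA libraries of batches 1, 2 and 3, at 0.140, 0.150 and 1.49 CPM in the HIV-1 libraries and at 0.192, 0.173 and 0.840 CPM in the PBS libraries. In batch 3 the HIV-1+LTA library was the highest and the PBS library the lowest, on 130, 86 and 42 counts, while batches 1 and 2 held 8 to 18 counts a library. HIV-1+LTA against PBS gave 0.90 (SE 0.364, interval 0.10 to 1.70, edgeR adjusted p 0.251), with 1.64 within batch 3, and 0.18 without batch 3. HIV-1+LTA against HIV-1 gave 0.68 (SE 0.357), the HIV-1+LTA library being the higher in all 3 batches.

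CXCL12, the homeostatic chemokine SDF-1, was measured at 399.2, 477.6 and 374.5 CPM in the HIV-1+LTA libraries of batches 1, 2 and 3, at 364.7, 305.6 and 350.3 CPM in the HIV-1 libraries and at 409.3, 292.7 and 348.7 CPM in the PBS libraries. All 3 HIV-1+LTA values lay above all 3 HIV-1 values, and the PBS values overlapped both. It was the 1 chemokine of 10 whose HIV-1+LTA and HIV-1 libraries did not overlap, beside 4.37% of all genes. The log2 fold change of CXCL12 in HIV-1+LTA against HIV-1 was 0.30 (SE 0.112, interval 0.06 to 0.55, edgeR adjusted p 0.253), and 0.09 without the HIV-1+LTA library of batch 2. In HIV-1+LTA against PBS it was 0.26 (SE 0.112), and 0.04 without batch 2, and in HIV-1 against PBS -0.04 (interval -0.28 to 0.21). With 17433 to 38326 counts per library, counting error was small beside the spread between libraries.

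CXCL16, which is cleaved from the cell surface by ADAM10, was measured at 5.15, 9.35 and 1.84 CPM in the HIV-1+LTA libraries of batches 1, 2 and 3, at 5.18, 5.85 and 1.64 CPM in the HIV-1 libraries and at 5.68, 5.61 and 1.08 CPM in the PBS libraries. The HIV-1+LTA library of batch 2 was the highest of the 9, and in batch 1 the 3 groups were close. HIV-1+LTA against PBS gave a log2 fold change of 0.40 (SE 0.179, edgeR adjusted p 0.284), with -0.14, 0.74 and 0.75 within batches 1, 2 and 3. It was 0.14 without the HIV-1+LTA library of batch 2 and 0.74 without batch 1.

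Both CC genes had their highest level in an HIV-1+LTA library. CCL2, which encodes the monocyte attractant MCP-1, was measured at 2.32, 3.38 and 5.05 CPM in the HIV-1+LTA libraries of batches 1, 2 and 3, at 2.38, 1.77 and 4.88 CPM in the HIV-1 libraries and at 2.87, 1.66 and 3.40 CPM in the PBS libraries. HIV-1+LTA was below PBS in batch 1 and above it in batches 2 and 3, and the fitted log2 fold change was 0.43 (SE 0.226, edgeR adjusted p 0.354). It was 0.12 without the HIV-1+LTA library of batch 2 and 0.82 without batch 1.

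CCL5, or RANTES, was measured at 0.402, 1.41 and 0.268 CPM in the HIV-1+LTA libraries of batches 1, 2 and 3, at 0.455, 0.734 and 0.260 CPM in the HIV-1 libraries and at 0.203, 0.605 and 0.160 CPM in the PBS libraries. Batch 2 was the highest in every group, and in each batch PBS was the lowest of the 3. HIV-1+LTA against PBS gave 1.05 (SE 0.324, interval 0.34 to 1.76, edgeR adjusted p 0.205), a 2.07-fold difference and the largest of the 10, and HIV-1 against PBS gave 0.68 (SE 0.337). Counts ran from 8 to 100 a library, and 18.5% of the 50-base runs of its transcript recur in transcripts of other genes, so its level is uncertain.

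**Figure D4:**
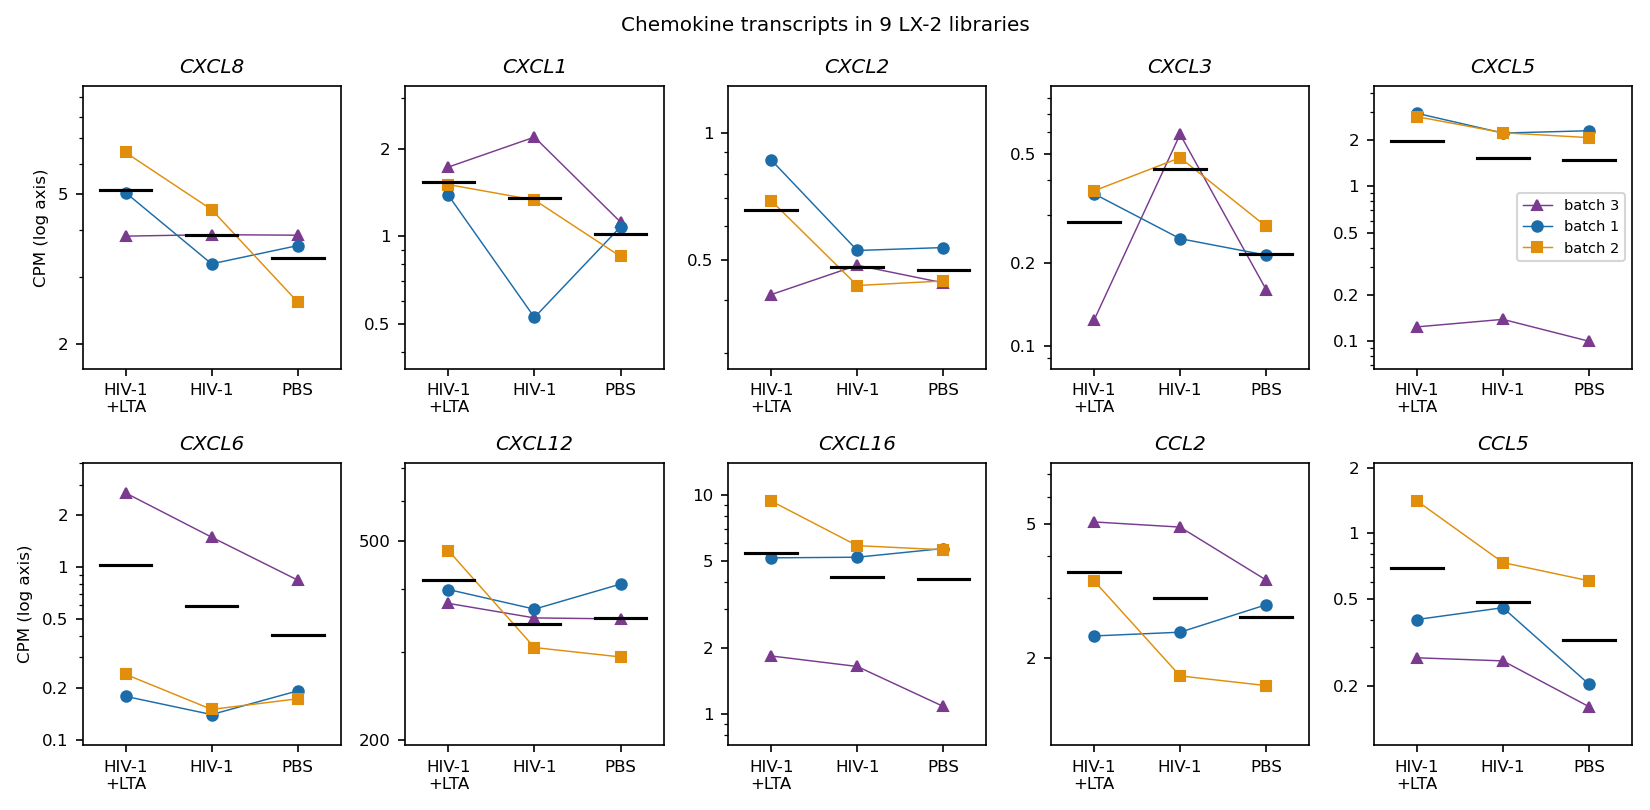
CPM (log axis) of each chemokine gene in the HIV-1+LTA, HIV-1 and PBS libraries; points of 1 batch are joined, and black bars are group means of 3 libraries. CXCL1 in HIV-1+LTA lies above PBS without overlap, CXCL8 is level in batch 3 at 3.86 to 3.89 CPM, and batch 3 lies apart for CXCL5, CXCL6 and CXCL16.

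Adding LTA to the virus was read from HIV-1+LTA against HIV-1. Here 0 of 10 chemokines passed in edgeR, beside 0% of all genes, and in DESeq2 with the block 0 of the 6 with an adjusted p, beside 1.22% of 19990 genes, or 1.82% of the 13401 with one; CXCL2, CXCL3, CXCL6 and CCL5 had none. All but CXCL3, 9 of 10, had a log2 fold change above 0, and the median was 0.33, beside -0.004 over all genes, of which 48.9% were above 0. Only CXCL12 had an unadjusted edgeR p below 0.05, 1 of 10 beside 15.4% of all genes. Higher in all 3 batches were CXCL6 and CXCL12, 2 of 10 beside 16.7% of all genes. Without the HIV-1+LTA library of batch 1, CXCL12 (0.41, edgeR adjusted p 0.0155) and CXCL16 (0.57, adjusted p 0.0278) passed, 2 of 10 beside 2390 of 16342 genes tested.

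The virus alone was read from HIV-1 against PBS. Again 0 of 10 passed in edgeR, beside 0%, and 0 of 10 in DESeq2 with the block, beside 0.015%. No member's groups were free of overlap, beside 2.74% of all genes, and CXCL3 was the 1 of 10 with an unadjusted edgeR p below 0.05, beside 4.21%. The median log2 fold change was 0.16 with 9 of 10 above 0, but without batch 3 it was -0.04 with 4 of 10 above 0. Without the HIV-1 library of batch 3, the PBS library of batch 2 or the PBS library of batch 3, 6 of 10 were above 0. CXCL3 and CCL5 were higher with HIV-1 in all 3 batches, 2 of 10 beside 16.3% of all genes; in HIV-1+LTA against PBS CXCL1, CXCL5 and CCL5 were, 3 of 10 beside 17.5%. The 3 comparisons share libraries, so their values for a gene are not independent of each other.

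The largest differences among these genes lay between batches. CXCL5, CXCL6, CXCL16, CCL2 and CCL5 passed the edgeR test of batch, 5 of 10 beside 68.2% of all genes. That test asks for any difference among the 3 batches. The adjusted p in this paragraph belong to it, and the folds of batch 3 were not tested on their own. CXCL5 averaged 0.121 ± 0.0194 CPM in batch 3 (SD, n = 3), against 2.43 ± 0.370 CPM in batches 1 and 2 (n = 6). It was 19.5-fold lower in batch 3 (log2 difference -4.29, edgeR adjusted p 3.97e-08), which placed it 273rd of 16117 genes by size of this difference; the median size over all genes was 0.44. CXCL6 averaged 1.67 ± 0.934 CPM in batch 3, against 0.179 ± 0.0353 CPM in batches 1 and 2, and was 8.59-fold higher in batch 3 (adjusted p 4.69e-06). CXCL16 was 4.01-fold lower in batch 3 (adjusted p 2.71e-06) and CCL2 1.85-fold higher (adjusted p 0.0039). CCL5 was 2.42-fold lower in batch 3 (adjusted p 0.000392 for any batch difference), with its highest values in batch 2. Against batch 1, its log2 difference was 1.37 in batch 2 and -0.59 in batch 3. CXCL8 (log2 difference -0.08, adjusted p 0.766), CXCL1, CXCL2, CXCL3 and CXCL12 did not pass.

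The ELR genes had a different make-up in batch 3, at a summed level within the range of the other batches. Together they came to 8.93, 8.79 and 6.54 CPM in the HIV-1+LTA, HIV-1 and PBS libraries of batch 3, against 10.8, 6.90 and 7.95 CPM in those of batch 1 and 12.0, 9.16 and 6.39 CPM in those of batch 2. CXCL5 took 1.39% to 1.57% of their counts in batch 3, against 23.4% to 32.3% in batches 1 and 2. CXCL6 took 12.8% to 30.0% in batch 3, against 1.64% to 2.71% in batches 1 and 2. CXCL8 took 43.2% to 59.3% in batch 3, against 40.4% to 53.3% in batches 1 and 2. Other genes also differed between these batches: the T cell list summed to 1.36 to 2.43 CPM in batch 3, against 12.9 to 18.3 CPM in batches 1 and 2, nearly all of it CD4. Whether these differences bear on CXCL5 and CXCL6 was not tested. The labels do not say what the batch number stands for.

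**Figure D5:**
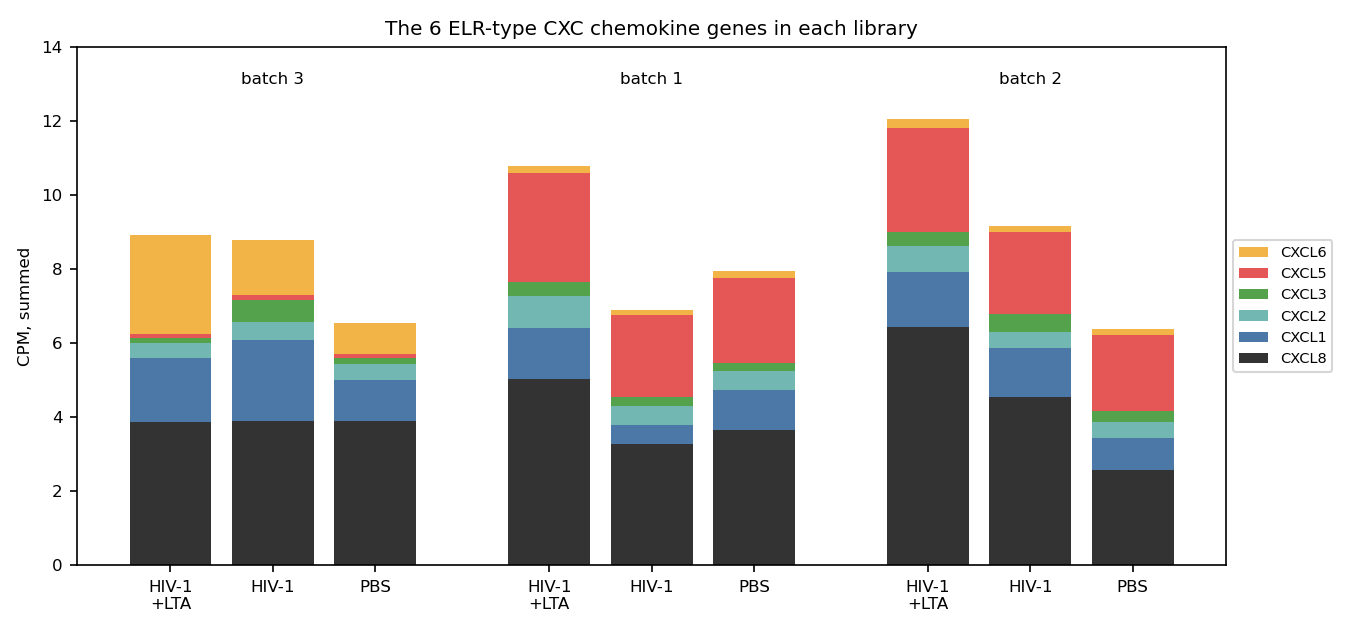
Summed CPM of the 6 ELR-type chemokine genes in each library, stacked by gene and grouped by batch. In batch 3 CXCL5 takes 1.39% to 1.57% of the counts and CXCL6 12.8% to 30.0%, while in batches 1 and 2 CXCL5 takes 23.4% to 32.3%, and CXCL8 is the largest single share in all 9 libraries.

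Genes that followed CXCL8 most closely were sought by correlating log2 CPM over the 9 libraries after removing each batch's mean, among 12950 genes that averaged 1 CPM or more. The 5 highest were the pseudogene GTF2IP12 (r 0.976), C7orf57 (0.961), OMA1, a mitochondrial protease (0.940), YBEY, an RNA-processing enzyme (0.938), and CD40, a receptor of the TNF family (0.929). Of the chemokines, CXCL12 (0.776), CXCL5 (0.768), CXCL1 (0.671), CCL2 (0.595) and CXCL16 (0.511) could be ranked, and CXCL12 came 158th. The 9 points share 3 batches and 3 treatments, and the values are given as a description.

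In the lists of other genes, some of those tested in edgeR had no DESeq2 adjusted p in the comparisons of HIV-1+LTA and could not pass there, while all had one in HIV-1 against PBS. Of 34 other chemokine genes, 16 had 0 counts in all libraries and 3 could be tested in edgeR (CXCL11, CXCL14 and CCL26). In edgeR 0 of the 3 passed, and CCL26 alone had an unadjusted p below 0.05, in both comparisons of HIV-1+LTA. That was 1 of 3, beside 16.8% of all genes against PBS and 15.4% against HIV-1. In DESeq2 with the block 0 passed, with an adjusted p in those comparisons for CCL26 only. CCL26, or eotaxin-3, an attractant of eosinophils, was the 1 that averaged 1 CPM or more: it averaged 2.90 CPM with HIV-1+LTA, 4.31 CPM with HIV-1 and 4.50 CPM with PBS. Its log2 fold change in HIV-1+LTA against PBS was -0.60 (SE 0.218, edgeR adjusted p 0.225), the opposite sign to the 10 chemokines described here. Within batches 1, 2 and 3 the CCL26 difference was 0.14, -1.33 and -0.67. In the same comparison CXCL11 gave -0.24 (SE 0.674) and CXCL14 gave 0.30 (SE 0.334). Of 23 chemokine receptor genes 8 could be tested in edgeR and 0 passed; in DESeq2 with the block 0 passed of the 1 with an adjusted p in HIV-1+LTA against PBS (ACKR3), the 5 in HIV-1+LTA against HIV-1 and the 8 in HIV-1 against PBS. In edgeR 1 had an unadjusted p below 0.05 in HIV-1+LTA against PBS, 2 in HIV-1+LTA against HIV-1 and 1 in HIV-1 against PBS, beside 16.8%, 15.4% and 4.21% of all genes tested. The CXCL12 scavenger ACKR3 was the highest at 4.30 CPM, followed by CCR10 at 1.42 CPM and CXCR6, the CXCL16 receptor, at 1.16 CPM. The receptor genes with the lowest p were CCR4 and CCR1 in HIV-1 against PBS and CCR4 and ACKR4 in the other comparisons, all at under 1 CPM. The ELR receptor gene CXCR1 had 1 count in all 9 libraries together, CXCR2 had 1 to 18 counts a library and the CXCL12 receptor gene CXCR4 had 1 to 16; these were named after their values were seen.

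Lists of genes that act on chemokine transcription, mRNA decay and protein processing were also read. Of 22 tested genes for transcription factors and regulators of chemokine promoters, 0 passed in edgeR or in DESeq2 with the block, where FOS had no adjusted p in HIV-1+LTA against PBS. At an unadjusted edgeR p below 0.05 stood 5 of the 22 in HIV-1+LTA against PBS, beside 16.8% of all genes tested, 7 in HIV-1+LTA against HIV-1, beside 15.4%, and 3 in HIV-1 against PBS, beside 4.21%. In HIV-1+LTA against PBS the lowest p were those of IRF1, an interferon-responsive factor (log2 fold change 0.34, SE 0.116, edgeR adjusted p 0.213), and CEBPD (0.69, SE 0.255, adjusted p 0.229). In HIV-1+LTA against HIV-1 they were those of the AP-1 genes JUN (-0.26, SE 0.0781, adjusted p 0.203) and FOSB (-0.45, SE 0.153, adjusted p 0.226), and in HIV-1 against PBS those of NFKB2 (0.26, adjusted p 0.946) and FOSB (0.36, adjusted p 0.946). Of 9 tested mRNA decay genes 0 passed in either tool, and 3, 1 and 0 had an unadjusted edgeR p below 0.05 in the 3 comparisons in the same order, beside the same shares of all genes, with MAPKAPK2 and ZFP36L1 at -0.14 and 0.17 in HIV-1+LTA against PBS. Of 10 tested processing genes, which include proteases that cut chemokines, 0 passed in edgeR, and 0 in DESeq2 of the 8, 9 and 10 with an adjusted p; 4, 3 and 0 had such an unadjusted edgeR p, again beside 16.8%, 15.4% and 4.21% of all genes. MMP2 gave 0.70 (SE 0.196, edgeR adjusted p 0.187) in HIV-1+LTA against HIV-1. In HIV-1+LTA against PBS, MMP9 gave 1.37 (SE 0.437, edgeR adjusted p 0.207) and MMP14 gave 0.20 (SE 0.0636, edgeR adjusted p 0.207). MMP9 averaged only 0.485 CPM, on 4 to 81 counts a library, and its difference within batch 1 was 0.12.

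Among 20 tested genes of LTA sensing and IL-1 input, CD14, the co-receptor that hands bacterial lipids to Toll-like receptors, rose in HIV-1+LTA against HIV-1 in DESeq2 with the block (log2 fold change 0.56, SE 0.165, adjusted p 0.0445), while its edgeR adjusted p was 0.186. It was the 1 gene of that list to pass in any comparison. A DESeq2 adjusted p was given for 15 of the 20 in HIV-1+LTA against PBS, 17 in HIV-1+LTA against HIV-1 and 20 in HIV-1 against PBS. Of all genes with an adjusted p, 1.93%, 1.82% and 0.015% passed there, in that order. An unadjusted edgeR p below 0.05 was found for 4, 4 and 0 of the 20, beside 16.8%, 15.4% and 4.21% of all genes. IRAK3 and TNFRSF1A had the lowest p in HIV-1+LTA against PBS, with log2 fold changes of 0.25 and 0.20. Among the 9 stellate markers, VIM fell in HIV-1+LTA against HIV-1 (-0.31, DESeq2 adjusted p 0.0199) and against PBS (-0.31, adjusted p 0.0276). In HIV-1+LTA against PBS, LOX, which cross-links collagen, fell (-0.33, DESeq2 adjusted p 0.0353) and TIMP1, a metalloproteinase inhibitor, rose (0.32, adjusted p 0.0446). Within batches 1, 2 and 3 that difference was 0.07, -0.66 and -0.38 for LOX and -0.03, 0.36 and 0.65 for TIMP1. For VIM it was -0.02, -0.53 and -0.35, so none of the 3 genes moved much in batch 1. Of the 9 markers, 5 had an edgeR log2 fold change above 0 in that comparison. In DESeq2 3, 1 and 0 of the 9 passed in the same order of comparisons, beside the shares above, and none passed in edgeR. The unadjusted edgeR p was below 0.05 for 6, 5 and 0 of the 9, beside 16.8%, 15.4% and 4.21% of all genes. Of 13 mitochondrially encoded genes, COX1 and COX2 rose in HIV-1+LTA against HIV-1 in DESeq2 with the block (0.29 and 0.30, adjusted p 0.036 and 0.0184). These were 2 of 13, beside 1.82% of all genes with an adjusted p. In edgeR 1, 9 and 9 of the 13 had an unadjusted p below 0.05 in the same order of comparisons, beside 16.8%, 15.4% and 4.21%. A log2 fold change above 0 was found for 5, 13 and 0 of the 13. The 13 summed to 12933 to 15004 CPM in HIV-1+LTA libraries, 10704 to 12642 CPM in HIV-1 libraries and 12622 to 14532 CPM in PBS libraries. The part of these genes in the chemokine values was not tested.

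Among markers of other cell types CD4 was the most abundant, at 10.1 CPM, followed by CSF1R at 1.24 CPM and SERPINA1 at 1.20 CPM, and each of the others averaged under 1 CPM. In edgeR 0 of the 10 that could be tested passed in any comparison. In DESeq2 with the block 0 passed of the 1 with an adjusted p in HIV-1+LTA against PBS (CD4), the 4 in HIV-1+LTA against HIV-1 and the 10 in HIV-1 against PBS. At an unadjusted edgeR p below 0.05 stood CD4 in HIV-1+LTA against PBS (log2 fold change 0.38, adjusted p 0.213) and CD4 and SERPINA1 in HIV-1+LTA against HIV-1 (0.33 and 0.89, adjusted p 0.266 and 0.236). Of all genes tested, 16.8% had such a p in HIV-1+LTA against PBS and 15.4% in HIV-1+LTA against HIV-1. The part of these marker genes in the chemokine values was not tested. The 6 macrophage markers summed to 1.47 to 2.10 CPM with HIV-1+LTA, 1.00 to 2.34 CPM with HIV-1 and 1.67 to 2.06 CPM with PBS, of which CSF1R was the most abundant and CD163 had at most 1 count a library. The 4 endothelial markers summed to 1.16 to 1.91 CPM with HIV-1+LTA, 1.09 to 1.87 CPM with HIV-1 and 0.860 to 2.05 CPM with PBS. The 4 hepatocyte markers, nearly all SERPINA1, summed to 1.30 to 1.93 CPM with HIV-1+LTA, 0.536 to 1.26 CPM with HIV-1 and 0.440 to 1.71 CPM with PBS. The 5 T cell markers summed to 2.43 to 18.3 CPM with HIV-1+LTA, 1.51 to 14.2 CPM with HIV-1 and 1.36 to 13.5 CPM with PBS, and PTPRC, the pan-leukocyte gene, had 1 to 82 counts a library.

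The series also has ChIP-seq of 1 HIV-1 and 1 PBS sample, titled Lx2 but with Lx5 and Lx3 as the cell line in the labels; the antibody is not given in the sources used here. The 1 deposited peak list, for HIV-1, has 166 peaks of 181 to 430 bases. None lay within 100 kb of a chemokine gene described here. The share of all genes with a peak that near was not counted, so this is not a result particular to these genes. The nearest was 2.016 Mb from CXCL16, and the single peak on chromosome 4 was 72.883 Mb from CXCL8.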

How the data were processed

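Raw read counts for each gene symbol were deposited; per the submitters' processing notes the tools include fastp, STAR, SAMtools and HTSeq on hg19, with versions and strand setting not given in the sources used here. The authors also deposited a differential expression table, whose columns per the file header are a mean signal (size-factor-scaled counts), a log2 fold change with its standard error, a score (the Wald statistic), a p-value and its adjusted form. It names no comparison; fitting batch plus group in DESeq2 returned 19990 of its 19990 fold changes for HIV-1+LTA against PBS to within 0.01. The peak list gives positions and no value per peak.

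Counts were fitted in edgeR 4.0.16 (R 4.3.3; quasi-likelihood F-test, TMM, filterByExpr by group, 1 fit of 9 libraries, batch and group as terms), with Benjamini-Hochberg adjustment over 16117 genes and an adjusted p below 0.05 as threshold; intervals cover 95%. The fit was also run on simulated counts with known changes, drawn with the spread estimated from these libraries. Its recovery of changes as small as those of the chemokines is not given here. Per the labels, replicate and batch numbers are the same, which pairs libraries. Same-batch libraries of different groups deviated together (correlation 0.817 to 0.983), as did libraries of batches 1 and 2 across batches (up to 0.894). These correlations therefore cannot show which libraries of batches 1 and 2 belong together. The HIV-1+LTA library of batch 2 differed less from the libraries of batch 1 than from those of its own batch. Against HIV-1 it differed by 33.3 (batch 1) and 52.3 (batch 2) times the chi-square expected from sampling, and against PBS by 41.3 and 59.0 times. No 2 libraries were copies. DESeq2 1.42.0 and limma-voom (limma 3.58.1) were run as alternatives, as were no block, other scalings and filters, only the libraries compared, and leaving out each library or batch. Levels in CPM used TMM, log2 CPM a prior count of 2, and lengths the exon union of GENCODE on hg19. A within-batch difference is 1 library's log2 CPM minus another's.

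The 10 genes and all gene lists were chosen with earlier results of these data known. Always named were the 10 genes; other chemokine genes were named from a mean of 1 CPM; of each other list, up to 4 genes that passed in edgeR or DESeq2 with the block, otherwise at most 2 with the lowest edgeR p; and the 5 genes most like CXCL8. Counts are of reads without molecular identifiers.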

Additional observations from a re-analysis of the deposited data

How the results depend on the processing

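Of the 10 chemokines' fold changes in the 3 comparisons, all 240 values under 8 other settings kept the direction, and the 228 of them with an adjusted p kept the side of the threshold; DESeq2 gave no adjusted p for the other 12; of 360 values with a library or batch left out, 326 did, 9 passed where they had not, and 25 changed sign. None of these fold changes had passed. With sign changes, HIV-1 against PBS ran from -0.12 to 0.43 for CCL2, -0.11 to 0.82 for CXCL1, -0.17 to 0.0754 for CXCL12, -0.0473 to 0.36 for CXCL16, -0.13 to 0.14 for CXCL2, -0.45 to 0.52 for CXCL6 and -0.10 to 0.40 for CXCL8; HIV-1+LTA against HIV-1 ran from -0.0786 to 0.65 for CCL5, -0.15 to 0.68 for CXCL1 and -1.14 to 0.0231 for CXCL3; HIV-1+LTA against PBS ran from -0.0228 to 0.77 for CXCL3.

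Chemokines passing, 0 of 10 in each comparison, with a library or batch left out ran from 0 to 2 (HIV-1+LTA against HIV-1) or 0 to 4 (HIV-1+LTA against PBS). The 2 and 4 came without the HIV-1+LTA library of batch 1, where 2390 and 2648 of 16342 genes passed. Over all genes edgeR with the replicate block called 0 in each comparison, with 678 at an unadjusted p below 0.05 for HIV-1 against PBS, 2486 when HIV-1+LTA was set against HIV-1 and 2709 when it was set against PBS; the counts that follow keep this order. With a library or batch left out, the calls ran from 0 to 5, 0 to 2390 and 0 to 2648. DESeq2 with the block called 3, 244 and 236; limma-voom called 0 in each. Without the replicate block, edgeR called 0 in each, with 42, 153 and 141 at an unadjusted p below 0.05, and DESeq2 called 1, 1 and 0. With no filterByExpr the calls were 1, 1 and 0, and in fits of only the 6 libraries compared 2, 0 and 0. With and without the block 0 of 10 chemokines passed in each comparison in edgeR. Library totals alone put 60.8%, 57.6% and 66.6% of all genes above 0. The cause of these differences was not tested. CXCL3, CXCL5, CXCL6 and CCL5 had under 20 counts in some libraries.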
